A study of Mus musculus with 6 samples.

Results

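The receptor tyrosine kinases described here are Egfr, Erbb2, Erbb3, Erbb4, Met, Fgfr1, Fgfr2, Fgfr3, Kit and Igf1r, receptors studied in glioma other than the PDGF receptors. They were listed by gene name, with no threshold on their values, and make up 10 of the 16729 genes in the deposited table. RNA-seq was performed on brain tumors grown from mG7080 cells, a mouse glioblastoma gliomasphere line. The cells were injected intracranially into C57BL/6J mice that were either wild type (WT) or knockout for Esm1 (KO), the gene for the secreted proteoglycan Endocan, and tumors were resected for RNA once they had formed, with 3 libraries per group and no other treatment. The age of the hosts is given differently in the sources used here and is not stated. The injected cells were from the same line in both groups, so the deletion was in the host alone, and bulk tumor RNA holds reads from tumor and host cells together. The labels present the libraries as separate tumors, and p-values measure the spread between them.

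Receptor tyrosine kinases are membrane proteins that dimerize when a ligand binds outside the cell and then phosphorylate themselves and adaptor proteins inside it, which activates the Ras-ERK and PI3K-AKT pathways. EGFR is the receptor most often amplified in human glioblastoma, and MET, FGFR and PDGFRA alterations also occur in this disease. In the normal brain, Fgfr3 is expressed by astrocytes, Fgfr2 by oligodendrocytes and astrocytes, and Erbb4 by GABA interneurons.

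The libraries held 17632070 to 22241832 counts, so that 1 read was worth 0.0441 to 0.0568 CPM (counts scaled to the library's total and by the trimmed mean of M values, TMM), and every receptor had at least 74 reads in each library. Reads on Esm1 numbered 25, 21 and 82 in WT 1, WT 2 and WT 3, and 1, 24 and 4 in KO 1, KO 2 and KO 3. The fitted log2 fold change of Esm1 was -2.20 (adjusted p = 0.192, edgeR quasi-likelihood) over all 6 libraries. Leaving out KO 2 was prompted by its Esm1 reads, so no test of Esm1 is given without it. Esm1 in the library labelled KO 2 was thus at the level of the lower WT libraries, and along the first principal component of all genes, with 84.5% of the variance, it lay between WT 1 and WT 3. The injected cells were not deleted for Esm1, so reads from tumor cells and from host cells cannot be told apart here, and the label of KO 2 is in doubt. Each result is given with all 6 libraries as labelled and again without the library labelled KO 2. It was left out with earlier results of these data known, and p-values without it do not account for this choice.

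The receptors did not move as a class. Egfr had the largest difference of the 10, with a WT mean 3.66 times the KO mean. In TMM-scaled CPM, Erbb2 and Fgfr1 were also lower in all 3 KO libraries, whereas Fgfr3 and Kit were higher in all 3. TMM factors were 0.916 and 0.866 in KO 1 and KO 3 and 1.04 to 1.07 in the other libraries. In the deposited FPKM (fragments per kilobase, scaled to library size without TMM), the groups overlapped for Fgfr3 and Kit but not for Egfr, Erbb2 and Fgfr1. Over all 6 libraries no receptor passed an adjusted p of 0.05 in edgeR's quasi-likelihood test (lowest adjusted p = 0.184, Benjamini-Hochberg over 16166 genes), and neither did any other gene, so that the called share of all genes was 0% in either direction. At an unadjusted p under 0.05, the same test found 4 receptors, with Egfr, Erbb2 and Fgfr1 lower in KO and Fgfr3 higher. Beside them, 1923 of the 16166 genes were lower in KO and 2462 were higher. DESeq2 called 3 receptors lower and 0 higher (2.71% and 4.82% of all genes), edgeR's exact test called 1 lower and 0 higher (0.285% and 0.464%), and limma-voom called 0. The receptors that DESeq2 called were Egfr, Erbb2 and Fgfr1, a larger share than that of all genes called lower, and the exact test called Egfr. Without the library labelled KO 2, the quasi-likelihood test called 5 receptors, 3 lower (Egfr, Erbb2 and Fgfr1) and 2 higher (Erbb4 and Fgfr2), in a comparison that called 28.3% of all genes lower and 24.5% higher. The receptors' shares were near those of all genes in that fit and are not a result about receptors as a group. Their median log2 fold change was 0.27 over all 6 libraries and 0.37 without the library labelled KO 2, beside -0.02 for all genes tested in both fits.

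**Figure D1:**
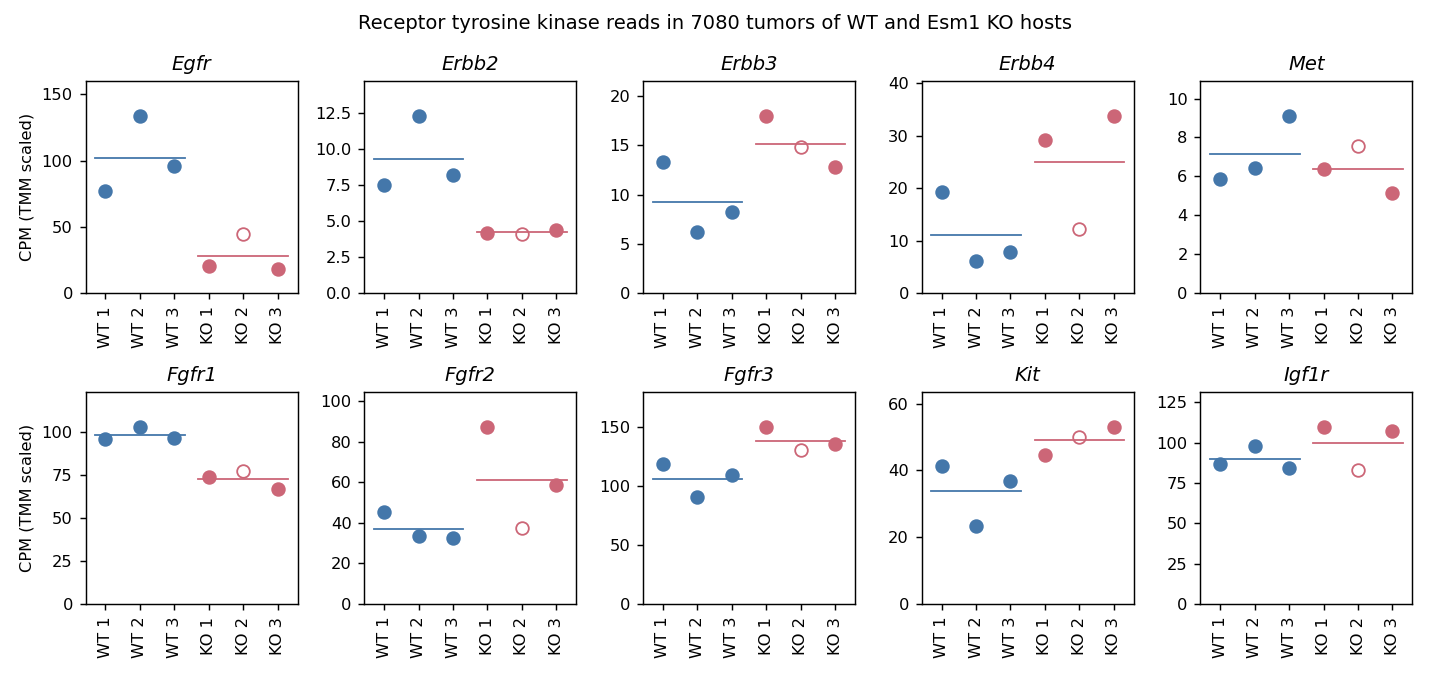
TMM-scaled CPM (y axes, from 0) of the 10 receptors in each of the 6 libraries (x axes), with WT in blue, KO in red, the library labelled KO 2 as an open circle and the mean of each group as a line. Egfr, Erbb2 and Fgfr1 were lower in the 3 KO libraries than in any WT library, Fgfr3 and Kit were higher in all 3, and the other 5 receptors overlapped.

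Egfr, Erbb2 and Erbb4, the ErbB receptors that passed the test without the library labelled KO 2, are shown by their promoters, since Egfr and Erbb2 were lower together and Erbb4 differed in the opposite direction. The sequences are from RefSeq (GRCm38.p6), run 5′ to 3′ on the strand of the gene from 250 bases before to 50 bases after its start, and are at chr11:16751953-16752252 (Egfr, plus strand), chr11:98412234-98412533 (Erbb2, plus strand) and chr1:69108010-69108309 (Erbb4, minus strand). Capitals mark matches to motifs searched on both strands. These were GGGCGG, called a GC box, the letters CCAAT, which give that box its name, and TATAAA for a TATA box.
Egfr: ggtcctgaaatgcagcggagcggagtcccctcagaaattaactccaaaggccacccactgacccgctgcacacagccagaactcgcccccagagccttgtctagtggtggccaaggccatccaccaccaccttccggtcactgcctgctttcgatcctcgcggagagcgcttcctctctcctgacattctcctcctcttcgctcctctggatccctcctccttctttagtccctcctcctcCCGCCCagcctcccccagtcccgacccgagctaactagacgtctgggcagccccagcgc
Erbb2: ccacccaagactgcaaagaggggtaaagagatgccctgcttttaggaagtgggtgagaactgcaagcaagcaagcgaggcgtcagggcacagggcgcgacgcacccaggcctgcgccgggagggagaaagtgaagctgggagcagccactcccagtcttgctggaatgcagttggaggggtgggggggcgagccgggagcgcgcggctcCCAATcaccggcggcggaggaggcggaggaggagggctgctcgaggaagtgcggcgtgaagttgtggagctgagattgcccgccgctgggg
Erbb4: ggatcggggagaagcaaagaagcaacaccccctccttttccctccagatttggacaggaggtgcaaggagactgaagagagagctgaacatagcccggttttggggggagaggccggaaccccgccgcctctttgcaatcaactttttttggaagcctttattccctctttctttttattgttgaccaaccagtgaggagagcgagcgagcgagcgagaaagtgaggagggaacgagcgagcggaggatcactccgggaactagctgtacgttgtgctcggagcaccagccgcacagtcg
The Egfr window held 1 GC box, on the opposite strand, the Erbb2 window held 1 CCAAT box, and the Erbb4 window held none of these motifs. Of 32851 mouse promoters of the same length, 35.7% held a GC box, 37.4% a CCAAT box and 13.6% a TATA box. GC content was 62.3% for Egfr, 66.0% for Erbb2 and 55.3% for Erbb4, with 15, 21 and 17 CpG dinucleotides, beside medians of 52.7% and 7 over all promoters. Of the 10 receptors, 8 had a promoter in the table, Erbb3 and Fgfr1 being without one, and a TATA box was found in none of the 8.

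Egfr, the receptor for EGF, TGF-alpha and HB-EGF, was at 77.1, 133 and 96.1 CPM in WT 1, WT 2 and WT 3, and at 20.7, 44.6 and 18.4 CPM in KO 1, KO 2 and KO 3. The gene lies at chr11:16752203-16918158 (mm10, plus strand). Every KO library was below every WT library, and the library labelled KO 2 was the highest of the KO libraries. The means were 102 ± 28.6 CPM in WT (SD, n = 3) and 27.9 ± 14.5 CPM in KO (SD, n = 3). With all 6 libraries the log2 fold change was -1.87 (SE 0.41, adjusted p = 0.184, edgeR quasi-likelihood), although DESeq2 gave an adjusted p of 0.00717 and edgeR's exact test 0.0188. Without the library labelled KO 2, Egfr fell by 2.36 on the log2 scale (SE 0.26, adjusted p = 0.00798), with a WT mean 5.23 times that of the other KO libraries. With KO 1 or KO 3 left out as well, only 1 KO library remained, and the log2 fold change was -2.45 or -2.28. No call is given from those fits, since 1 library shows no spread in KO. In bulk tumors, fewer cells expressing a gene and less of its RNA per cell cannot be told apart.

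Erbb2, which has no ligand of its own and acts as the preferred partner of the other ErbB receptors, was measured at 7.48, 12.3 and 8.24 CPM in WT and 4.20, 4.14 and 4.41 CPM in KO (chr11:98412470-98437716, plus strand). All 3 KO libraries, with 74, 94 and 85 reads, lay below the lowest WT library with an SD of 0.142 CPM. Here the library labelled KO 2 did not stand apart from KO 1 and KO 3. The WT mean was 2.19 times the KO mean. The log2 fold change was -1.13 (SE 0.26, adjusted p = 0.184) over all 6 libraries and -1.09 (SE 0.29, adjusted p = 0.0255) without the library labelled KO 2, both from edgeR's quasi-likelihood test. That call was lost when WT 2 or WT 3 was also left out (adjusted p of 0.0557 and 0.0691). With KO 1 or KO 3 left out instead, only 1 KO library remained, and the log2 fold change was -1.06 or -1.13. Over all 6 libraries DESeq2 gave an adjusted p of 0.0150.

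Erbb4, a neuregulin receptor, differed in the other direction, at 19.3, 6.08 and 7.84 CPM in WT and 29.3, 12.3 and 33.7 CPM in KO (chr1:68032186-69108059, minus strand). KO 1 and KO 3 were above every WT library, whereas the library labelled KO 2 was below WT 1. Its log2 fold change was 1.18 (SE 0.57, adjusted p = 0.201) over all 6 libraries, and Erbb4 rose by 1.52 (SE 0.50, adjusted p = 0.0455) without the library labelled KO 2 (edgeR quasi-likelihood). The call did not hold when WT 2 or WT 3 was left out as well (adjusted p of 0.0742 and 0.126). With KO 1 or KO 3 left out instead, only 1 KO library remained, and the log2 fold change was 1.61 or 1.41.

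Erbb3, which binds neuregulins but has little kinase activity and signals through its partners, was at 13.3, 6.19 and 8.24 CPM in WT and 17.9, 14.9 and 12.8 CPM in KO (chr10:128567523-128589652, minus strand). The groups overlapped, because KO 3 was just below WT 1. Its log2 fold change was 0.71 (SE 0.33, adjusted p = 0.192) with 6 libraries and 0.74 (SE 0.37, adjusted p = 0.137) without the library labelled KO 2 (edgeR quasi-likelihood). Leaving out WT 1 also brought Erbb3 past the threshold (log2 fold change 1.10, adjusted p = 0.0150).

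Among the FGF receptors, Fgfr1 was the one with lower values in KO. It was at 95.7, 103 and 96.3 CPM in WT and 73.5, 77.4 and 66.9 CPM in KO (chr8:25513654-25575718, plus strand), so that the groups did not overlap and differed by 1.35 times in their means. Fgfr1 had a log2 fold change of -0.44 (SE 0.12, adjusted p = 0.184) over all 6 libraries and -0.47 (SE 0.12, adjusted p = 0.0241) without the library labelled KO 2 in edgeR's quasi-likelihood test. DESeq2 gave an adjusted p of 0.0200 over all 6. The quasi-likelihood call without the library labelled KO 2 was lost when WT 2 or WT 3 was left out in addition (adjusted p of 0.0581 and 0.0839). With KO 1 or KO 3 left out instead, only 1 KO library remained, and the log2 fold change was -0.54 or -0.40.

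Fgfr2 was at 45.5, 33.4 and 32.3 CPM in WT and 87.1, 37.6 and 58.8 CPM in KO (chr7:130162451-133123350, minus strand). This span is as annotated in GENCODE M21 and reaches beyond the RefSeq start, whose promoter window is at chr7:130266759-130267058. KO 1 and KO 3 were above all WT libraries, and the library labelled KO 2 fell inside the WT range. The log2 fold change of 0.72 (SE 0.33, adjusted p = 0.191) over all 6 libraries became 0.99 (SE 0.24, adjusted p = 0.0210) without the library labelled KO 2, where Fgfr2 passed the test (edgeR quasi-likelihood). It no longer passed when WT 3 was left out too (adjusted p of 0.0751). With KO 1 or KO 3 left out instead, only 1 KO library remained, and the log2 fold change was 0.68 or 1.25.

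Fgfr3 had 119, 90.3 and 109 CPM in WT and 150, 130 and 135 CPM in KO (chr5:33721674-33737068, plus strand). In CPM all 3 KO libraries were above all WT libraries, but in FPKM KO 3 (27.6) was below WT 1 (29.0). The 6-library log2 fold change of 0.39 (SE 0.15, adjusted p = 0.184) did not pass edgeR's quasi-likelihood test. Nor did that of 0.44 (SE 0.17, adjusted p = 0.0705) without the library labelled KO 2 in the same test. In the latter comparison DESeq2 gave an adjusted p of 0.0450, and leaving out WT 1 gave 0.0238 in edgeR.

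Kit, the receptor for stem cell factor, was at 41.4, 23.4 and 36.8 CPM in WT and 44.5, 50.1 and 53.0 CPM in KO (chr5:75574916-75656722, plus strand). In CPM the KO libraries were all above the WT libraries, but in FPKM KO 1 (7.86) was below WT 1 (8.28). The log2 fold change was 0.54 in both comparisons, with SE 0.23 and adjusted p = 0.188 over all 6 libraries, and SE 0.27 and adjusted p = 0.133 without the library labelled KO 2 (edgeR quasi-likelihood). Without WT 1 in addition, Kit passed (log2 fold change 0.71, adjusted p = 0.0467). Of 7 mast cell markers, Hdc alone was listed, at 0.519 to 4.57 CPM, and of 5 melanocyte markers Pmel and Dct were listed.

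Igf1r, the receptor for IGF-1 and IGF-2, was at 86.5, 97.9 and 84.5 CPM in WT and 110, 82.9 and 107 CPM in KO (chr7:67952827-68233668, plus strand). In CPM KO 1 and KO 3 were above the WT range and the library labelled KO 2 was below it. In FPKM KO 1 and KO 3 (8.37 and 7.74) were inside the WT range (7.49 to 8.76), and KO 2 (7.37) was below it. Neither log2 fold change passed edgeR's quasi-likelihood test, 0.16 (SE 0.16, adjusted p = 0.469) over all 6 libraries and 0.29 (SE 0.12, adjusted p = 0.0905) without the library labelled KO 2.

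Met, the receptor for hepatocyte growth factor, was at 5.88, 6.45 and 9.08 CPM in WT and 6.36, 7.58 and 5.14 CPM in KO (chr6:17463800-17573980, plus strand). The groups overlapped with and without the library labelled KO 2. The log2 fold change was -0.17 (SE 0.27, adjusted p = 0.655) and -0.29 (SE 0.28, adjusted p = 0.405), respectively, in edgeR's quasi-likelihood test, and the value changed sign, to 0.065, when WT 3 was left out of the 6 libraries.

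Counted over all 6 libraries in TMM-scaled CPM, the groups did not overlap for 5 of the 10 receptors, 3 lower and 2 higher in KO. Beside them, 14.8% of all genes were lower and 12.6% higher in the same sense. The 2 higher receptors, Fgfr3 and Kit, overlapped between the groups in FPKM.

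**Figure D2:**
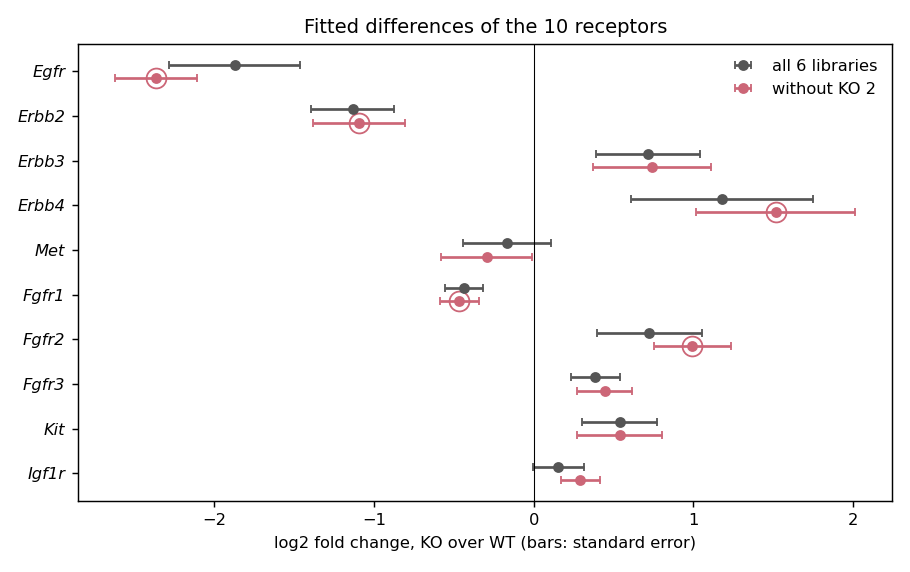
Log2 fold changes of the 10 receptors, KO over WT (x axis), from edgeR's quasi-likelihood fits to all 6 libraries (grey) and without the library labelled KO 2 (red), with standard errors as bars and a ring around values with an adjusted p under 0.05. Rings surround Egfr, Erbb2, Erbb4, Fgfr1 and Fgfr2 in the second comparison, and none in the first.

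The library labelled KO 2 did not take the same place for every receptor. Relative to the WT mean on the log2 scale, Egfr was at -2.26 in KO 1, -1.16 in KO 2 and -2.43 in KO 3, so KO 2 was between the WT mean and the other KO libraries. Erbb2, at -1.10, -1.12 and -1.03, and Fgfr1, at -0.42, -0.34 and -0.55, had KO 2 beside the other KO libraries. For Erbb4 the differences were 1.58, 0.33 and 1.78, and for Fgfr2 1.25, 0.04 and 0.68, with KO 2 nearest to the WT mean in both.

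Marker genes of other cell types differed between the same libraries. Their counts are from the fit without the library labelled KO 2, which called 24.5% of all genes higher and 28.3% lower. The summed level of 10 neuron markers was 1863 to 5761 CPM in WT, 13522 and 16801 CPM in KO 1 and KO 3, and 5062 CPM in KO 2, and all 10 rose without the library labelled KO 2. In the same fit 4 of 8 GABA interneuron markers rose, with sums of 333 to 772 CPM in WT, 1401 and 1116 CPM in KO 1 and KO 3, and 513 CPM in KO 2. Myelinating oligodendrocyte markers (2 of 10 rose) summed to 1418 to 3523 CPM in WT and 3352 to 7844 CPM in KO, and astrocyte markers (6 of 10 rose, 1 fell) to 3388 to 4423 CPM in WT and 4836 to 7121 CPM in KO. In contrast, all 12 proliferation genes fell, from 1369 to 2546 CPM in WT to 147 and 42.5 CPM in KO 1 and KO 3, with 1533 CPM in KO 2. Oligodendrocyte lineage and progenitor markers (4 of 6 fell) summed to 1749 to 2009 CPM in WT, 745 and 401 CPM in KO 1 and KO 3, and 2529 CPM in KO 2, and microglia and macrophage markers (6 of 9 fell, 1 rose) to 715 to 782 CPM in WT, 403 and 356 CPM in KO 1 and KO 3, and 1001 CPM in KO 2, above every WT library. Endothelial markers (3 of 10 rose) summed to 198 to 252 CPM in WT and 211 to 293 CPM in KO, and mural cell markers (2 of 7 rose, 1 fell) to 147 to 223 and 167 to 204 CPM. Each listed marker had reads in every library. The part of these differences in the receptor values was not tested. Over all 6 libraries none of these marker genes passed edgeR's quasi-likelihood test, as was the case for all genes.

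**Figure D3:**
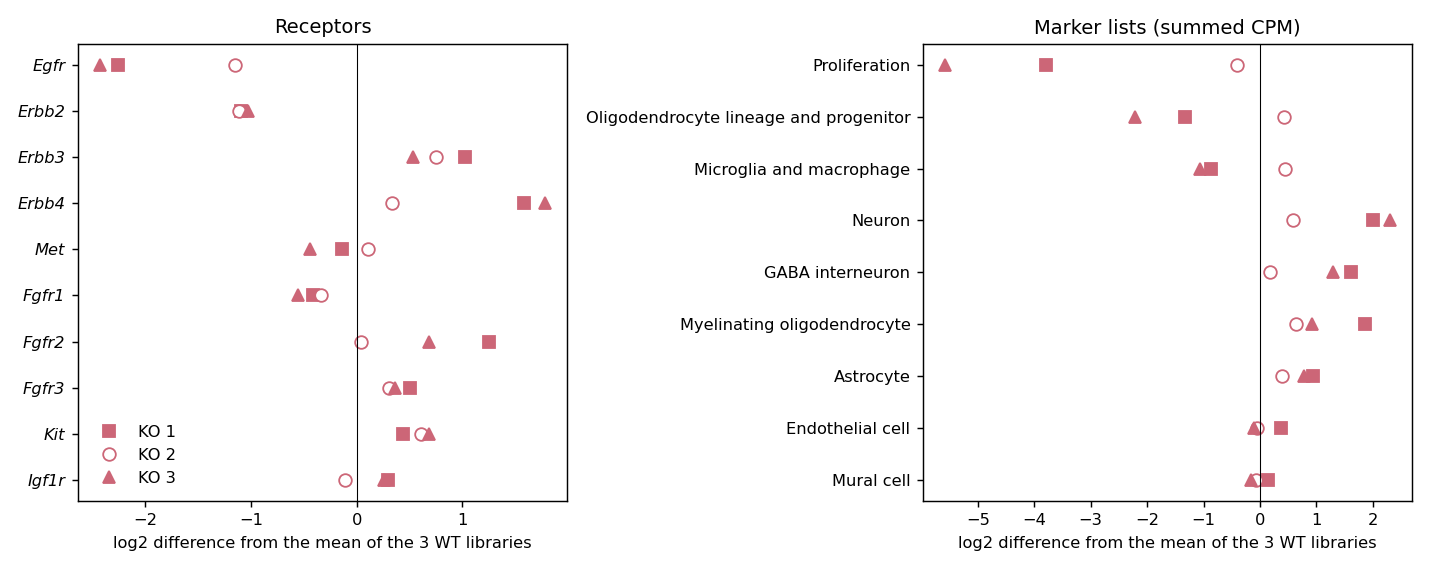
Log2 difference of each KO library from the mean of the 3 WT libraries (x axes) for the CPM of the 10 receptors (left) and the summed CPM of 9 marker lists (right), with KO 1 as squares, the library labelled KO 2 as open circles and KO 3 as triangles. In KO 2 proliferation was at -0.40 and Egfr at -1.16, whereas in KO 1 and KO 3 proliferation was at -3.79 and -5.58 and Egfr at -2.26 and -2.43.

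Levels of different receptors were compared per length, using the deposited FPKM (fragments per kilobase, scaled to library size). In all 3 WT libraries Egfr was the highest of the 10, at 29.9, 53.4 and 38.2 FPKM, followed by Fgfr3 at 29.0, 22.8 and 27.3 FPKM and Fgfr1 at 19.8, 21.9 and 20.4 FPKM. The WT ranges of these 3 did not overlap, but in WT 1 Egfr was only 1.03 times Fgfr3. Fgfr2 (6.61 to 9.08 FPKM), Igf1r (7.49 to 8.76 FPKM) and Kit (4.85 to 8.28 FPKM) took the next places with overlapping ranges, as did Erbb4 (1.53 to 4.69 FPKM), Erbb3 (1.65 to 3.44 FPKM) and Erbb2 (1.55 to 2.63 FPKM), and Met was last at 0.918 to 1.45 FPKM. In KO, Fgfr3 was first in all 3 libraries, at 27.6 to 32.7 FPKM, and Egfr was at 7.06 and 5.96 FPKM in KO 1 and KO 3 and at 17.8 FPKM, in place 2, in KO 2. Erbb2, at 0.765 to 0.883 FPKM, and Met, at 0.669 to 1.21 FPKM, were in the last places in KO.

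The places of Egfr and of some other receptors depended on the length used. The deposited FPKM corresponded to 2678 bases for Egfr, whereas its merged exons span 11326 bases (GENCODE M21). With TMM-scaled CPM per kilobase of merged exons, an alternative chosen after seeing the data, Egfr was at 6.81, 11.8 and 8.49 in WT, in place 2 or 3, and Fgfr3 was first in all 6 libraries. On that scale Egfr was in place 5 in KO 2, and Erbb4 rather than Met was last in WT 2 and WT 3. Within a library, the ratio of Egfr to Fgfr3 FPKM was 1.03, 2.34 and 1.40 in WT and 0.219, 0.544 and 0.216 in KO, and a fixed length changes all 6 ratios alike. The ratio of Fgfr2 to Fgfr1 FPKM was 0.460, 0.314 and 0.324 in WT and 1.15, 0.469 and 0.850 in KO, with Fgfr2 above Fgfr1 in KO 1 alone.

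The ligands and partners of the receptors were taken from lists written by hand. Their counts below are from the fit without the library labelled KO 2, which called 24.5% of all genes higher and 28.3% lower. Over all 6 libraries none of their genes passed edgeR's quasi-likelihood test (adjusted p under 0.05). Counts in these short lists that are near the shares of all genes are not results about the lists. Of 7 ErbB ligands tested, 2 rose and 0 fell, with a median log2 fold change of -0.20. Nrg3 and Nrg2, neuregulins that bind Erbb4, rose by 2.12 (SE 0.46, adjusted p = 0.0163) and 1.50 (SE 0.23, adjusted p = 0.00914). Nrg3 was at 18.3, 6.61 and 8.39 CPM in WT and 39.6, 14.8 and 56.1 CPM in KO, where the library labelled KO 2 was below WT 1. Nrg1 had a log2 fold change of 1.29 (adjusted p = 0.102) and Nrg4 of -0.20 (adjusted p = 0.440). Tgfa, an Egfr ligand and the most abundant of the list, was at 83.1, 73.0 and 92.6 CPM in WT and 91.4, 81.1 and 40.5 CPM in KO, with a log2 fold change of -0.31 (adjusted p = 0.465). The other Egfr ligands did not pass either, Egf at -0.55 (adjusted p = 0.176) and Hbegf at -0.20 (adjusted p = 0.299). Btc, also an Egfr ligand, was below the filter at 0.282 to 0.623 CPM.

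Of 5 tested genes of HGF and the proteases and inhibitors that control its activation, 1 rose and 1 fell (median -0.11). Hgf was at 6.54, 6.03 and 6.75 CPM in WT and 10.2, 8.64 and 12.1 CPM in KO, above the WT range in all 3, and rose by 0.81 (adjusted p = 0.0232). St14, which encodes the protease matriptase, fell, with 6.68, 4.34 and 4.22 CPM in WT and 1.19, 9.26 and 1.09 CPM in KO, where the library labelled KO 2 was the highest of the 6. Spint2, an inhibitor of HGF-activating proteases, was at 1.02 on the log2 scale (adjusted p = 0.0874).

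Of 13 FGF ligands and Klotho co-receptors, 5 rose and 0 fell, with a median of 1.02, in a fit that called 24.5% of all genes higher and 28.3% lower. Fgf10 was at 4.38, 1.69 and 2.33 CPM in WT and 10.4, 4.45 and 14.95 CPM in KO, and rose by 2.18 (adjusted p = 0.0143). Fgf9 rose by 2.07 (adjusted p = 0.0161), Fgf1, the most abundant of the list, by 1.24 (adjusted p = 0.0454) and Fgf22 by 1.17 (adjusted p = 0.0250). Fgf2, Fgf17 and Fgf18 did not pass, at 0.35, -0.51 and 0.51, nor did Fgf5 at 1.82 (adjusted p = 0.0587). Kl, which encodes Klotho, was at 20.3 CPM in WT 1 and at 1.14 to 3.80 CPM in the other libraries.

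Kitl, the ligand of Kit, was at 35.8, 21.9 and 39.1 CPM in WT and 55.2, 25.3 and 60.9 CPM in KO, and rose by 0.86 (adjusted p = 0.0380), with the library labelled KO 2 inside the WT range. Of 11 IGF ligands and binding proteins, 1 rose and 5 fell (median 0.26). Igf1 was at 0.26 (adjusted p = 0.474) and Igf2 at 1.40 (adjusted p = 0.0865) on the log2 scale. The genes that fell were Igfbp2, Igfbp3, Igfbp4 and Igfbp7, by 1.36, 2.07, 0.63 and 1.07, and Igfals, which encodes the subunit that keeps IGFs in serum complexes, at 0 to 1.14 CPM. Igfbp6 rose by 1.93 (adjusted p = 0.0303), and Igfbp5, the most abundant binding protein at 112 to 261 CPM, did not pass (0.54, adjusted p = 0.172).

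Of 9 related receptors, 2 rose and 3 fell (median 0.11). Insrr, an orphan relative of the insulin receptor, fell, at 6.21, 6.87 and 8.83 CPM in WT and 1.02, 18.8 and 0.571 CPM in KO, with the library labelled KO 2 again the highest. Fgfrl1, an FGF receptor without a kinase domain, fell by 1.97, and Pdgfra, a marker of oligodendrocyte progenitors, fell by 1.13, at 174, 214 and 184 CPM in WT and 91.4, 176 and 80.9 CPM in KO. Mst1r, the relative of Met, rose by 1.53 and Pdgfrb, a marker of pericytes, by 0.88, and Csf1r, the microglial receptor, had a log2 fold change of -0.01 (adjusted p = 0.972).

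Of 17 adaptors, 5 rose and 6 fell (median -0.05). Shc2 rose by 1.88 and Shc4 fell by 1.94, both members of the family of Shc adaptors, and Pik3r1, the regulatory subunit of PI3K and a highly abundant adaptor at 193 to 346 CPM, fell by 0.58 (adjusted p = 0.0373). Irs4 had the lowest value, -2.72, but did not pass (adjusted p = 0.160), with 17.5 CPM in WT 1 and 0.447 to 3.91 CPM elsewhere. Of 14 inhibitors of receptors and Ras, 2 rose and 5 fell (median -0.07). Spry1, a feedback inhibitor of receptor signaling, fell by 2.40 (adjusted p = 0.00833), and Lrig1, which lowers ErbB receptor protein, fell by 2.01, whereas Errfi1, an inhibitor of the Egfr kinase, rose by 0.69 (adjusted p = 0.0379). Spred1, the partner of neurofibromin, did not pass (0.26, adjusted p = 0.200).

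Of 10 genes induced by ERK signaling, 1 rose and 4 fell (median -0.50), beside 24.5% and 28.3% of all genes in that fit, and with so few genes these counts are not a result about the list. Ccnd1, which encodes cyclin D1, was at 322, 515 and 414 CPM in WT and 93.0, 373 and 90.3 CPM in KO and fell by 2.16, and the ETS factors Etv4 and Etv5 fell by 2.11 and 0.58. The gene that rose was Epha4, an ephrin receptor also abundant in neurons, by 1.78 (adjusted p = 0.0250). Dusp6, the ERK phosphatase, had a log2 fold change of -0.31 (adjusted p = 0.230), and Spry4, counted also among the inhibitors, fell by 0.90. Without KO 1 or KO 3 as well, only 1 KO library remained, so no counts for these lists are given from those fits. Over all 6 libraries, the groups did not overlap for 14 lower and 13 higher of 87 genes in these lists, shares near those of all genes.

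**Figure D4:**
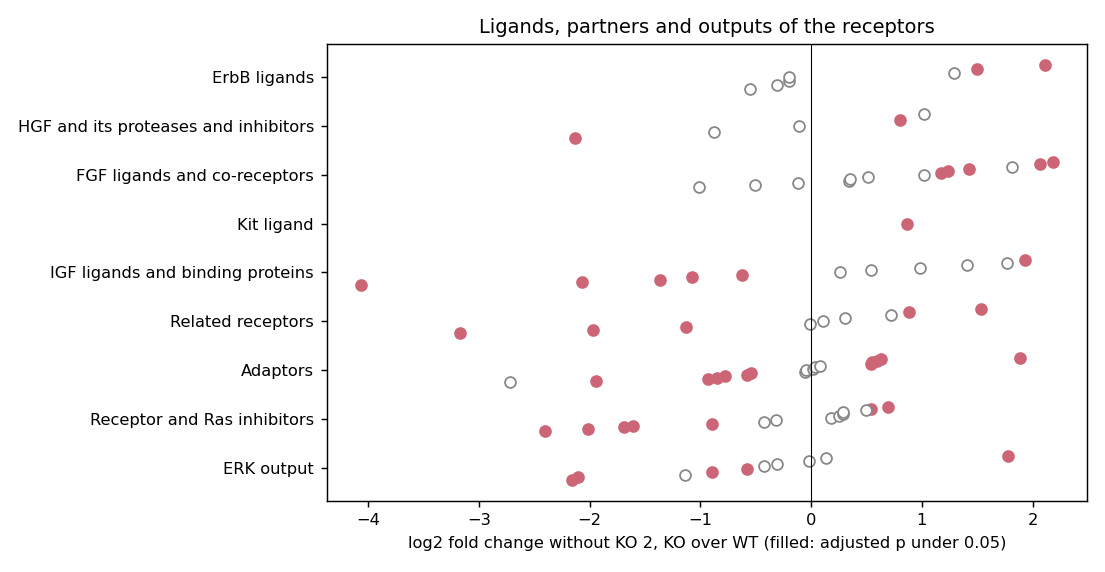
Log2 fold change, KO over WT, without the library labelled KO 2 (x axis) of each tested gene in the 9 lists of ligands, partners and outputs (rows), with filled points at an adjusted p under 0.05 in edgeR's quasi-likelihood test. Of the 13 FGF ligands and co-receptors 5 rose and 0 fell, and of the 10 ERK output genes 4 fell and 1 rose, where 24.5% of all genes were called higher and 28.3% lower.

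Egfr and Erbb4 were the receptors whose highest CPM was over 4 times their lowest (7.23 and 5.54 times). The genes most like Egfr over the 6 libraries, by Pearson's r of log2 CPM among 11584 genes with a mean of at least 10 CPM, were Fkbp10, Rev3l and C1qbp (r = 0.9996, 0.999 and 0.998). For Erbb4 they were Dpp6, March4 and Paqr9 (r = 0.9997, 0.9996 and 0.999). Fkbp10 was at 33.2, 60.0 and 42.9 CPM in WT and 8.17, 19.8 and 7.42 CPM in KO, and Dpp6 at 175, 63.0 and 79.0 CPM in WT and 262, 122 and 292 CPM in KO. These are descriptions over 6 points that share libraries and depth, chosen as the highest of many genes.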

How the data were processed

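RNA-seq of 6 tumors was analysed, grouped by label into 3 WT and 3 KO libraries. The mutations of the injected line are not reported here. The counts are whole reads per gene as the authors deposited them, without normalization. Labels and methods both name edgeR, but the labels name mm10 and CASAVA 1.8.2, whereas the study's methods name hg38 and HTSeq and its reporting summary names STAR, and the kit also differs between these sources. The authors deposited FPKM per gene and library, used here to compare receptors per length and to compare libraries without TMM. The table also holds a normalized signal, which the authors made by scaling each library's counts, and the authors' log2 fold changes, p-values and false discovery rates, which were not used.

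In R 4.3.3, edgeR 4.0.16 was used to fit the counts (filterByExpr with minimum count 10 and minimum total 15, TMM, quasi-likelihood F test, Benjamini-Hochberg over all genes tested). A gene was called at an adjusted p under 0.05, and log2 fold changes are KO over WT. The SE given is the absolute log2 fold change divided by the square root of the F statistic, since this test returns none. The fit to all 6 libraries as labelled came first and the fit without the library labelled KO 2 second. The script was tested on simulated data. Alternatives comprised scaling by RLE or by the upper quartile, a mean of 10 counts or no filter, DESeq2 1.42.0, edgeR's exact test, limma-voom (limma 3.58.1), a replicate block, 4 libraries of the study's table, and each replicate left out in turn. Promoters are from RefSeq and gene positions from GENCODE M21.

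The receptors, lists and fits were chosen with earlier results of these data known. All receptors and Esm1 were named, and from each list the genes with the lowest and highest log2 fold change, the highest mean CPM, and direct ligands of at least 1 CPM. Other list genes named (Btc, Igfbp2, Igfbp3, Igfbp4, Igfbp7, Fgfrl1, Pdgfra, Pdgfrb, Shc4, Lrig1, Etv4, Etv5, Dusp6 and Spry4) were chosen after their values were seen. Intervals of counting error were not computed. All receptors had at least 74 reads in each library, but counting error weighs most on those with few reads, such as Erbb2 and Met.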

Additional observations from a re-analysis of the deposited data

How the results depend on the processing

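Over all 6 libraries, no receptor was called by edgeR's quasi-likelihood test under RLE or upper quartile scaling, under either filter alternative or by limma-voom. DESeq2 called 3 receptors (425 genes lower and 757 higher) and edgeR's exact test 1 (46 and 75). The 4 libraries of the study's own table were WT 1, WT 2, KO 1 and KO 3, so KO 2 and WT 3 were left out. A quasi-likelihood fit to those 4 called 1 receptor (2244 and 464). With each replicate left out of the 6 in turn, 0 to 5 receptors, 0 to 4608 lower genes and 0 to 3986 higher genes were called, all of them in the fit without the library labelled KO 2. Without that library, leaving out a WT replicate gave 1 receptor (without WT 3) to 8 (without WT 1), 2244 to 5532 lower genes and 464 to 5195 higher genes. Leaving out KO 1 or KO 3 left 1 KO library, and no separate counts are given for those fits. Met, at -0.17 over the 6 libraries, ranged from -0.29 (without KO 2) to 0.065 (without WT 3, reversed) with 1 replicate left out. Alternatives to the 6-library fit, counted over all 10 receptors, include fits with libraries left out. Among them, 139 fold changes kept their direction and side of the threshold and 10 newly passed it. Those 10 were 5 without KO 2, 3 by DESeq2, 1 by edgeR's exact test and 1 in the 4 libraries of the study's table. For alternatives to the fit without the library labelled KO 2, some with 1 KO library, 100 kept both, 4 newly passed and 16 no longer passed. The scalings moved the median of all genes to between -0.06 and 0.02 on the log2 scale. With a replicate block, edgeR's quasi-likelihood test called 0 receptors (Egfr -1.95, adjusted p = 0.0650). Libraries with the same number correlated in their deviations at 0.549, 0.594 and -0.210. Those with unequal numbers ranged from -0.642 (WT 1 with KO 2) to 0.541 (WT 1 with KO 3). With so few libraries per group, these values cannot decide whether equal numbers mark a pair. By merged exons, an alternative chosen after seeing the data, the libraries with Egfr highest per length went from 3 to 0 and those with Fgfr3 highest from 3 to 6. The causes of these changes were not tested.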
